A study of Mus musculus with 2 samples.

Results

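The C1q-high macrophages of the mouse uterus were chosen by their C1q counts, as those cells that carried at least 10 unique molecular identifiers (UMIs, each counting 1 captured transcript) of the 3 C1q genes together. They also had at least 1 UMI of Csf1r or Ptprc and no more than 3 UMIs each of the epithelial gene Epcam, the endothelial gene Pecam1 and the collagen gene Col1a2. Barcodes first had to hold at least 1000 UMIs and 500 genes, with at most 15% of UMIs from mitochondrial genes. In all, 297 of 14848 such barcodes met the rule, 163 of 7783 in the DOX library and 134 of 7065 in the DOX plus AMH library. These shares were 2.09% (95% exact binomial interval 1.79 to 2.44) and 1.90% (1.59 to 2.24), and the intervals overlap. Among barcodes with a UMI of the pan-leukocyte gene Ptprc, members made up 34.0% (147 of 432) in the DOX library and 35.4% (122 of 345) in the DOX plus AMH library.

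The study asked, by its title, whether anti-Müllerian hormone (AMH) lessens the response of the uterus to DNA damage by chemotherapy. Mice of the DOX group received 3 mg/kg doxorubicin, an anthracycline that poisons topoisomerase II and breaks DNA, and their uteri were collected at 4 h. Mice of the DOX plus AMH group received the same drug together with 0.75 mg/kg AMH and were collected at the same time. Both groups therefore carry doxorubicin, and an untreated library is not analysed here. Uteri of 5 animals were pooled for each group, digested with papain and collagenase A, and run as 1 droplet library of 3′-end transcript counts. With 1 library per group there is no replicate and no test. Intervals below are exact 95% intervals of counting error alone, which take no account of differences between animals, digestions or library preparations, and no statement below separates treatment from library.

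Members held 1698250 UMIs in the DOX library and 1781501 in the DOX plus AMH library. The median member had 9293 UMIs and 2872 genes in the first and 11497 UMIs and 3370.5 genes in the second, with 4.42% and 4.20% mitochondrial UMIs. For the libraries as a whole the order was the other way, with medians of 13975 and 10221 UMIs over all cells that passed. A doublet caller marked 440 and 327 of those cells, of which 0 and 1 were members. The libraries shared 17 of their deposited barcode sequences, none of them a member. Levels are given as CPM: the UMIs of a gene per 1000000 UMIs summed over the members of a library, or of 1 cell where a cell is meant. Transcripts are counted at their 3′ ends, so these levels carry no length term.

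The label of resident macrophages was checked against genes that the rule did not use. Adgre1, which encodes the macrophage surface protein F4/80, stood at 491 and 599 CPM in the DOX and DOX plus AMH libraries, and Mrc1, the mannose receptor, at 1531 and 2160. Pf4 had a UMI in 99 of 163 and 95 of 134 members. The dendritic cell receptor Flt3 was at 0 UMIs in all members. The word resident was not borne out by all of them. Lyve1, a marker of perivascular tissue macrophages, had a UMI in 50 and 37 members, and Ccr2, the receptor by which monocytes leave the blood, in 78 and 52. Only 5 and 8 members had UMIs of both. The members are therefore called C1q-high macrophages here.

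C1q is the recognition unit of the classical complement pathway, built from A, B and C chains that bind antibody complexes and dying cells. Unlike most complement proteins, it is made chiefly by tissue macrophages and dendritic cells. Uterine macrophages clear dead cells and take part in the remodelling of the endometrium, and some of them line blood vessels. Type I interferon acts on such cells through the receptor chains IFNAR1 and IFNAR2, the kinases JAK1 and TYK2, and a complex holding STAT2 and IRF9 that binds interferon-stimulated elements in promoters. Interleukin 4 and interleukin 13 act through STAT6 and are known inducers of Arg1, Chil3, Retnla and Mrc1, the genes called alternative activation below. AMH, a hormone of the transforming growth factor beta family, signals through its own receptor AMHR2.

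Promoter sequences of the genes on which the results turn are shown first, because they belong to genes with wide gaps between the libraries, interferon-stimulated genes on the lower side and an alternative activation gene on the higher. RefSeq promoter windows of GRCm38.p6, from 250 bases before to 50 bases after the start that the table gives for a gene, were matched by symbol. The core of the interferon-stimulated element was searched as GAAANNGAAA and a STAT6-type element as TTCNNNNGAA, both on either strand. Capitals mark the matches, which run together where they overlap. The stretches are Isg15 at chr4:156200845-156200926 on the minus strand, Ifit3 at chr19:34583343-34583446 on the plus strand, Cxcl10 at chr5:92349063-92349132 on the minus strand and Retnla at chr16:48842434-48842503 on the plus strand.
Isg15: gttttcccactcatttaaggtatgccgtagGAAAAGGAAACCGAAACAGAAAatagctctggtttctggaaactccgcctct
Ifit3: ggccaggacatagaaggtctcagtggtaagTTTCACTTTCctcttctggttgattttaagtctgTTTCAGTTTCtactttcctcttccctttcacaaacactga
Cxcl10: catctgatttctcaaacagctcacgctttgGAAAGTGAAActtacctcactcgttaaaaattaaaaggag
Retnla: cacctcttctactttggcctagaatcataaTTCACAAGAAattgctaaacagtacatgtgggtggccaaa

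The Isg15 stretch holds 3 overlapping matches to the interferon-stimulated core, the first beginning 78 bases before the start. Ifit3 holds 2, beginning 156 and 122 bases before the start and read on the opposite strand, and Cxcl10 holds 1, beginning 213 bases before it. The start given for Ifit3 lies inside the gene as annotated, which begins at 34583119, so its matches lie after that first base. Of the 50 genes on the interferon list, 37 had a promoter window and 20 of these (54.1%) held the core, against 1079 of 27025 genes with a window (3.99%) and 213 of 3955 counted genes with one (5.39%). In the alternative activation list 0 of 15 windows held it. The Retnla stretch holds 1 match to the STAT6-type letters, beginning 145 bases before the start, and 4 of 15 windows of that list (26.7%) held such a match, against 8.01% of all genes. The window of Chil3 held 0, while 6 of 37 windows of the interferon list (16.2%) held one. The gamma-activated letters TTCNNNGAA were found in 4 of 15 windows of the alternative activation list as well, against 9.55% of all genes. A match describes letters in a window and is not evidence that a factor binds there.

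C1q itself chose the members, so its levels are a description. C1qb, the B chain, stood at 4363 and 3048 CPM in the DOX and DOX plus AMH libraries, C1qa at 3647 and 2958, and C1qc at 2469 and 2245. Of all C1q UMIs, C1qb made up 41.6% and 36.9%, C1qa 34.8% and 35.9%, and C1qc 23.6% and 27.2%. The 3 genes lie side by side on chromosome 4 in the RefSeq annotation of GRCm38.p6, with C1qb at 136880126 to 136886200, C1qc at 136889801 to 136892936 and C1qa at 136895916 to 136898844. Summed C1q UMIs per member ran from 10 to 565 with a median of 94 in the DOX library, and from 10 to 653 with a median of 90.5 in the DOX plus AMH library. Just inside the threshold, at 10 to 12 UMIs, lay 2 and 8 cells, and just outside it, at 7 to 9 UMIs, lay 6 and 9. Members with at least 100 C1q UMIs had 195 and 197 CPM of Ccr2, against 706 and 628 in those with 13 to 29 UMIs. Their Pf4 stood at 3195 and 2137 CPM, against 123 and 810, so the members with the most C1q had more Pf4 and less Ccr2 in both libraries.

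A gene was counted as different in size where its CPM was at least 1.5-fold apart and it had at least 100 UMIs over the members of both libraries. Of 4937 genes with that many UMIs, 441 (8.93%) were lower in the DOX plus AMH library and 515 (10.4%) were higher, and the median log2 ratio of DOX plus AMH over DOX was 0.06. Scaling by trimmed means in place of total UMIs gave 610 lower and 317 higher, with a median of -0.05. The counts of the gene lists below are to be read against these shares, and each ratio is that of DOX plus AMH over DOX.

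Clustering showed how the members differ among themselves. They formed 7 sub-clusters, numbered here from 0 to 6, from 2000 variable genes without those of the rule. Sub-cluster 0 was led by Cd209f, Fcna, Lyve1 and Folr2, sub-cluster 2 by Cx3cr1, Hpgd and Slc40a1, and sub-cluster 4 by genes of dividing cells such as Top2a and Mki67. Sub-cluster 3 was led by interferon-induced genes such as Cxcl9 and Rsad2, and sub-cluster 5 by Ear2, Fabp5 and Retnla. Cells in the DOX and DOX plus AMH libraries numbered 40 and 30 in sub-cluster 0, 54 and 0 in 1, 16 and 30 in 2, 23 and 1 in 3, 22 and 8 in 4, 8 and 38 in 5, and 0 and 27 in 6. Sub-clusters 1 and 6 each came from 1 library, and all but 1 cell of sub-cluster 3 from the DOX library, so each may be a state of that library and not a kind of cell. Sub-cluster 1, from the DOX library, was led by Ly6c2 (3760 CPM), Slamf7 and Plac8 (4225 CPM), and had 34.2 CPM of Folr2 and 0 UMIs of Lyve1 and Cd163. It goes against the label of resident macrophage. So do sub-clusters 4 and 5, with 705 and 838 CPM of Ccr2, against 458 in sub-cluster 1. They had 27.4 and 43.0 CPM of Folr2 and 2.74 and 19.9 CPM of Lyve1. Sub-cluster 6, from the DOX plus AMH library, was led by Saa3 (4550 CPM), Chil3 (9433 CPM) and Arg1 (5324 CPM), with 61.7 CPM of Lyve1. Leading genes describe a cluster that was built from them and are no separate finding. Ratios without sub-clusters 1 and 6 are given below beside the genes that they move across 1.5-fold. Those ratios still hold sub-clusters 4 and 5, so they are not ratios of resident-type cells alone. They also hold sub-cluster 3, with 23 DOX cells and 1 DOX plus AMH cell, so they are not free of cells found almost only in 1 library.

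Genes that define macrophages as a class were level between the libraries in their median only, and single genes went both ways. Of 22 counted genes on the macrophage identity list, 4 were lower and 3 higher in the DOX plus AMH library, and the median log2 ratio was 0.01. The lower ones were Fcgr1, Aif1, Fcer1g and Cd68. Fcgr1, the high-affinity receptor for IgG, stood at 486 CPM in the DOX library and 140 in the DOX plus AMH library (log2 ratio -1.79, interval -2.00 to -1.59). Aif1, the actin-bundling protein IBA1, stood at 1130 and 602, with a log2 ratio of -0.91 that was -0.28 without sub-clusters 1 and 6. Of the 7 genes, Fcgr1 (-1.02), Cx3cr1 and Maf kept a gap of 1.5-fold without them. The higher ones were Cx3cr1, the fractalkine receptor (153 and 268 CPM), Cd14, a co-receptor for endotoxin (102 and 172), and the transcription factor Maf (572 and 925). Lyz2, Ctss and Siglec1 differed by at most 0.03 on the log2 scale. Fcgr1 and Siglec1 are both known to respond to interferon, and Siglec1 stood at 115 and 114 CPM.

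Single markers of perivascular tissue macrophages went both ways, while their summed level over all members was higher in the DOX plus AMH library. Of 19 counted genes, 3 were lower and 5 higher, with a median log2 ratio of 0.26. Summed over the list, the members stood at 5868 and 7942 CPM, and the median cell at 2253 and 6158. Of 134 DOX plus AMH members, 108 lay above the DOX median. These values include sub-cluster 1, with 54 DOX and 0 DOX plus AMH cells, where the list stood at 638 CPM. In sub-clusters 0 and 2 the sums were near each other, at 13756 and 14626 CPM and at 11677 and 11028. They were 1300 and 3598 CPM in sub-cluster 4 and 2024 and 3985 in sub-cluster 5. Lyve1, a receptor for hyaluronan, stood at 203 and 264 CPM, Folr2, a folate receptor, at 537 and 393, and Cd163, the scavenger of haemoglobin, at 90.1 and 122. With each member thinned to 3000 UMIs, Lyve1 had a UMI in 21.9% and 21.6% of members and Folr2 in 46.5% and 36.0%, with overlapping intervals. The lower genes were Cd209f (243 and 62.3 CPM, in 24 and 11 members), Cd209g (72.4 and 39.3) and Timd4, a receptor for phosphatidylserine on dying cells (45.3 and 16.3, in 28 and 12 members). Igf1, a growth factor, stood at 155 and 308 CPM (log2 ratio 0.99, interval 0.77 to 1.20), and Ltc4s, which makes leukotriene C4, at 256 and 538, though its log2 ratio of 1.07 was 0.44 without sub-clusters 1 and 6. The log2 ratio of Folr2, -0.45, was -0.68 without sub-clusters 1 and 6, past 1.5-fold lower. Of members with Lyve1, 48 of 50 and 36 of 37 also had Folr2, while 48 of the 86 and 36 of the 70 members with Folr2 had Lyve1.

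Cells with Csf1r and Ptprc but fewer than 10 C1q UMIs and no Flt3, 72 and 45 in number, served as the nearest comparison. Over both libraries, members had 97.8 times their level of Ccl8, a chemokine, 63.9 times that of Pf4 and 65.6 times that of Gpr34, a lysophosphatidylserine receptor. Cd38, which breaks down NAD, was 26.1 times as high. Members had 0.0422 times the Cd209a of those cells, 0.12 times the Napsa and 0.143 times the Itgal, the alpha chain of the integrin LFA-1. These values compare sums over cells of 2 libraries and carry no test. In the C1q-low cells the perivascular list also stood higher in the DOX plus AMH library, at 598 and 2108 CPM. Its median log2 ratio there was 1.45 over 4 counted genes.

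Interferon-stimulated genes stood lower in the DOX plus AMH members nearly as a whole list. Of 47 counted genes on the list, 43 (against 8.93% of all counted genes) were at least 1.5-fold lower in the DOX plus AMH library and 0 were higher, with a median log2 ratio of -1.56. Without sub-clusters 1 and 6 these were 37 and 0 of 44, with a median of -1.25. These values still include sub-cluster 3 (23 and 1 cells), where the list stood at 29901 CPM in the DOX cells. Within sub-cluster 0, which held 40 and 30 cells, the median was -0.05 over 9 counted genes. It was -0.35 over 4 in sub-cluster 2, -0.66 over 5 in sub-cluster 4 and -0.39 over 5 in sub-cluster 5. Summed over 48 genes, the list stood at 21134 CPM in the DOX library and 6548 in the DOX plus AMH library. This pattern was known from these data before the list was applied, so the count describes it and does not support it independently. In the plot of list levels by cell, 1 of 134 DOX plus AMH members lay above the DOX median of 18660 CPM, and 25 of 163 DOX members lay below the DOX plus AMH median of 5718. Levels in single DOX members ran from 1719 to 73899 CPM, and in DOX plus AMH members from 597 to 22098, so the ranges overlap. The lower quartile of the DOX members, 7383 CPM, was also below the upper quartile of the DOX plus AMH members, 8295 CPM.

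**Figure D1:**
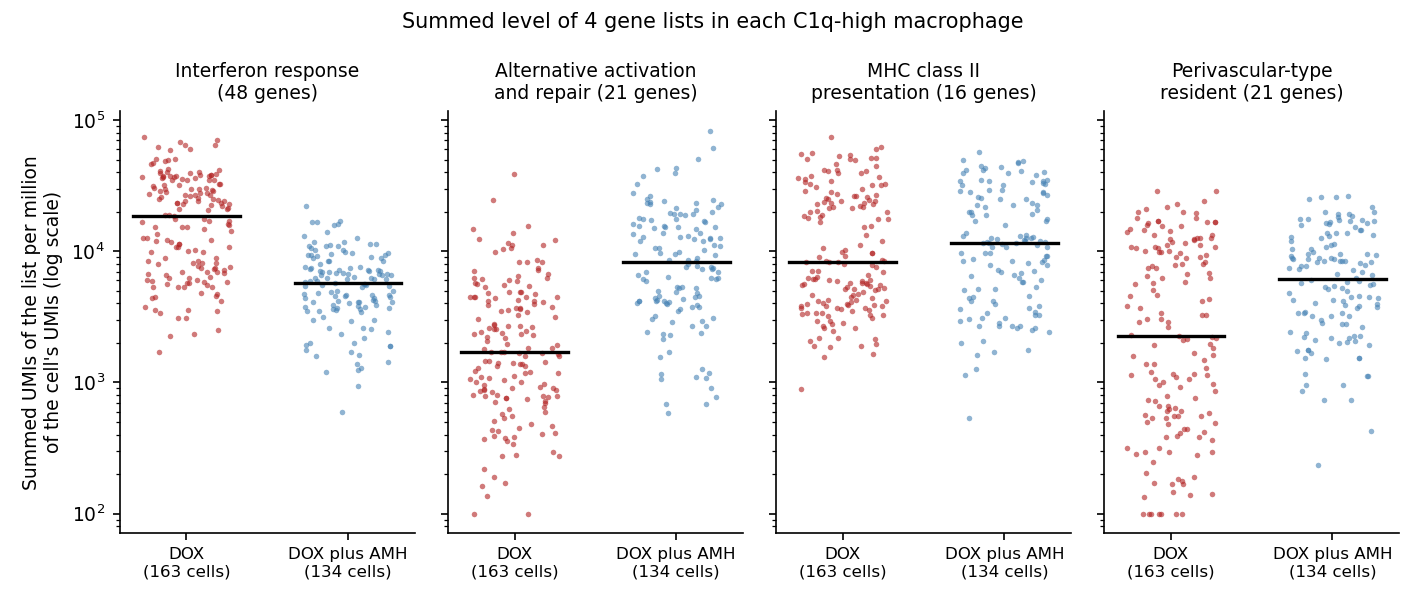
Summed level (CPM) of 4 gene lists in each C1q-high macrophage (points, log scale), with the median of each library (black line); cells under 100 CPM are drawn at 100. The DOX plus AMH members lie lower for the interferon list (medians 18660 and 5718) and higher for alternative activation (1704 and 8205).

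The effectors of the interferon list had the widest gaps. Isg15, a ubiquitin-like protein, stood at 1483 CPM in the DOX library and 107 in the DOX plus AMH library (log2 ratio -3.79, interval -4.01 to -3.58), with a UMI in 130 and 54 members. Ifit3, which binds viral RNA complexes together with IFIT1, stood at 397 and 15.2 CPM (-4.71, -5.33 to -4.16), with a UMI in 96 and 11 members. Ifit1 and Ifit2 stood at 257 and 19.1 CPM and at 253 and 12.9. Rsad2, the antiviral enzyme viperin, stood at 440 and 42.1 CPM. Bst2, or tetherin, and Ifi27l2a had smaller gaps from high levels, at 2198 and 686 CPM and at 6190 and 1979. The 4 counted genes of the list that did not reach 1.5-fold were Siglec1 (-0.02), Gbp7 (-0.22), Irf9 (-0.39) and Gbp2 (-0.48, and -1.07 without sub-clusters 1 and 6). Ifit3 has a close copy, Ifit3b (107 and 2.25 CPM), and reads could be split between the copies in the authors' counting.

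The interferon ligands were not seen in members, and the receptors stood at similar levels. Ifnb1, Ifna4 and Ifng had 0 UMIs in members of either library, which allows up to 1.77 CPM in the DOX and 1.68 CPM in the DOX plus AMH members (3 counts). Ifnar1 stood at 67.7 and 87.6 CPM (log2 ratio 0.37, and 0.74 without sub-clusters 1 and 6) and Ifnar2 at 267 and 232, and the receptor kinases Jak1 and Tyk2 had log2 ratios of 0.14 and -0.04. Ifngr1, a chain of the interferon gamma receptor, was higher at 121 and 196 CPM. Below the receptors, Stat2 stood at 185 and 71.8 CPM, and Irf7, the factor that amplifies interferon responses, at 700 and 76.3 (log2 ratio -3.20, interval -3.46 to -2.94). Of 16 counted Toll-like receptors and sensors, 6 were lower and 3 higher, with a median log2 ratio of -0.35. The lower ones included sensors of viral nucleic acid, with ratios of -1.64 for Zbp1, -1.45 for Ddx58 and -1.32 for Ifih1. Stat2, Irf7, Ddx58 and Ifih1 are also on the interferon list, so they repeat genes of its count. Of 17 counted receptors and factors, 4 were lower and 1 higher.

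The same list was lower in other cells of the DOX plus AMH library too. Its median log2 ratio was -2.53 over 35 counted genes in the C1q-low Csf1r-positive cells, -2.19 over 21 in dendritic-type cells and -0.54 over 44 in stromal-type cells. Isg15 stood at 145 and 78.4 CPM in stromal-type cells. Whether members differ from those cells in this respect was not tested, since each value comes from the same pair of libraries.

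Chemokines split into a lower and a higher group. Among 11 counted CC chemokines, 5 were lower and 3 higher in the DOX plus AMH library. The lower ones included ligands of CCR2, which draw monocytes: Ccl2 (2020 and 701 CPM), Ccl7 (1206 and 537) and Ccl12 (2886 and 845, log2 ratio -1.77, interval -1.86 to -1.69). Ccl4, a further chemokine of the list, stood at 826 and 166 CPM, and 39.3% of its UMIs in the DOX plus AMH library came from 1 cell. The higher ones were Ccl6 (902 and 3386 CPM), Ccl9 (372 and 1170) and Ccl24, an attractant of eosinophils (113 and 749, log2 ratio 2.73, interval 2.51 to 2.95). Ccl8 was the chemokine with the highest level in the DOX plus AMH members after Ccl6, at 2453 and 3298 CPM, a difference under 1.5-fold. Of the CXC chemokines induced by interferon, Cxcl10 stood at 521 and 11.8 CPM (-5.46, -6.16 to -4.84), with a UMI in 65 and 9 members, and Cxcl9 at 141 and 38.2. The neutrophil attractant Cxcl2 had a log2 ratio of 0.10, which was -1.95 without sub-clusters 1 and 6.

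Inflammatory cytokines showed no common direction. Of 18 counted genes of the cytokine and NF-kB list, 4 were lower and 1 higher, with a median log2 ratio of -0.18. Tnf had a log2 ratio of -1.89. Il18 stood at 81.3 and 29.2 and the adhesion molecule Icam1 at 161 and 64.6. Il1b stood at 119 and 130 CPM, and the gene higher in the DOX plus AMH library was Tnfaip2 (35.3 and 92.6).

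**Figure D2:**
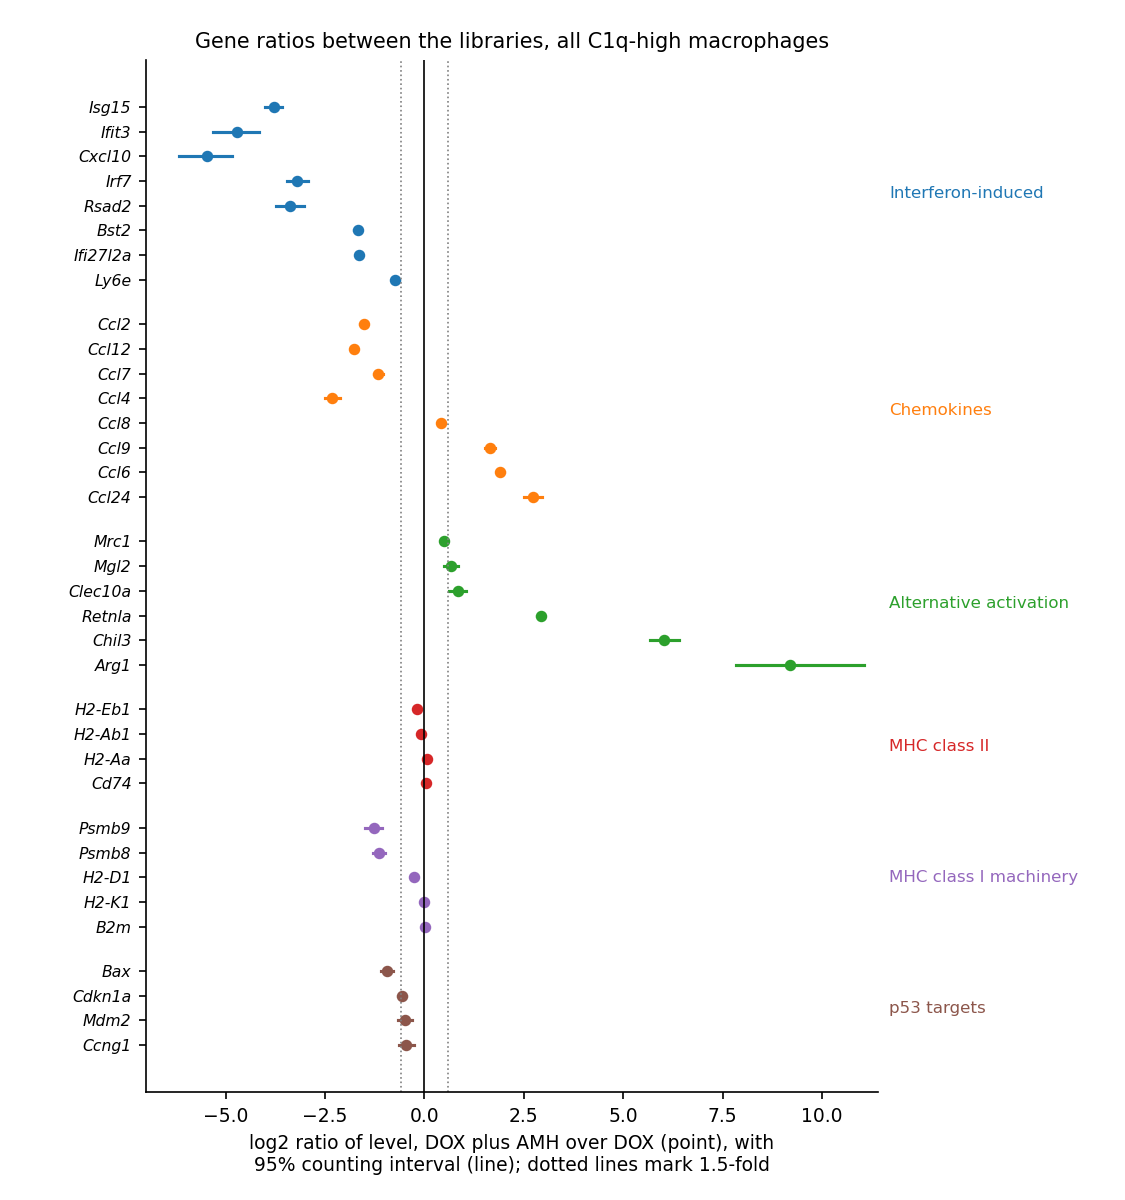
Log2 ratio of DOX plus AMH over DOX for single genes, by group (points), with 95% counting intervals (lines) and dotted lines at 1.5-fold. Interferon-induced genes lie left of 0 (Cxcl10 at -5.46), alternative activation genes right of it (Arg1 at 9.19), and MHC class II genes near it (H2-Aa at 0.06).

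Genes of alternative activation stood higher in the DOX plus AMH library. Among 15 counted genes 8 were past 1.5-fold on the higher side, where 10.4% of all counted genes lay, and 0 on the lower, with a median log2 ratio of 0.66; without sub-clusters 1 and 6 these were 6 and 0 of 11, with a median of 0.79. Arg1, which turns arginine into ornithine and urea, had 4 UMIs in 3 DOX members and 2457 UMIs in 53 DOX plus AMH members, or 2.36 and 1379 CPM (log2 ratio 9.19, interval 7.84 to 11.07). Chil3, the chitinase-like lectin Ym1, stood at 36.5 and 2384 CPM (6.03, 5.67 to 6.41), in 14 and 48 members. Retnla, the secreted protein RELM-alpha, stood at 718 and 5475 CPM (2.93, 2.84 to 3.02), in 22 and 71 members. Single cells carried much of this: the top cell held 18.4% of the Arg1 UMIs and 28.4% of the Chil3 UMIs of the DOX plus AMH library. Smaller differences were found for the lectins Clec10a (161 and 287 CPM) and Mgl2 (261 and 412), the factor Klf4 (84.8 and 210) and the transglutaminase Tgm2 (22.4 and 81.4). Without sub-clusters 1 and 6, Arg1, Chil3 and Retnla had log2 ratios of 6.60, 4.49 and 2.22, but Mgl2 one of 0.35 and Tgm2 one of -1.08. The receptor chain Il4ra stood at 76.5 and 62.3 CPM and Stat6 at 37.1 and 44.3, neither 1.5-fold apart. The alternative activation list was higher in other cells of the DOX plus AMH library too. Its median log2 ratio was 0.91 over 9 counted genes in C1q-low Csf1r-positive cells (2072 and 5441 CPM summed). It was 0.86 over 6 in dendritic-type cells (810 and 1551 CPM) and 0.33 over 13 in stromal-type cells. Over all counted genes the medians were 0.02 in C1q-low Csf1r-positive cells, 0.04 in dendritic-type cells and 0.17 in stromal-type cells. Whether members differ from those cells in this respect was not tested.

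Shares of cells gave the same order once depth was made equal. After thinning each cell to 3000 UMIs, which left 155 and 125 members and left out 8 and 9, Arg1 had a UMI in 0 of 155 DOX members (at most 2.35% by the exact interval) and in 31.2% of DOX plus AMH members. Retnla had one in 11.6% and 51.2%, Chil3 in 7.10% and 22.4% and Ccl24 in 14.8% and 40.0%. In stromal-type cells, taken as the background, the shares of Arg1, Retnla, Chil3 and Ccl24 ran from 0.0455% to 1.62% in the 2 libraries. Isg15 had a UMI in 67.1% and 14.4% of members and Ifit3 in 45.2% and 4.00%. Stromal-type cells had Isg15 in 15.5% and 7.53% and Ifit3 in 11.5% and 4.79%. Within the DOX plus AMH library the Ifit3 share of members was thus near that of stromal-type cells, and the Isg15 share was above it.

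**Figure D3:**
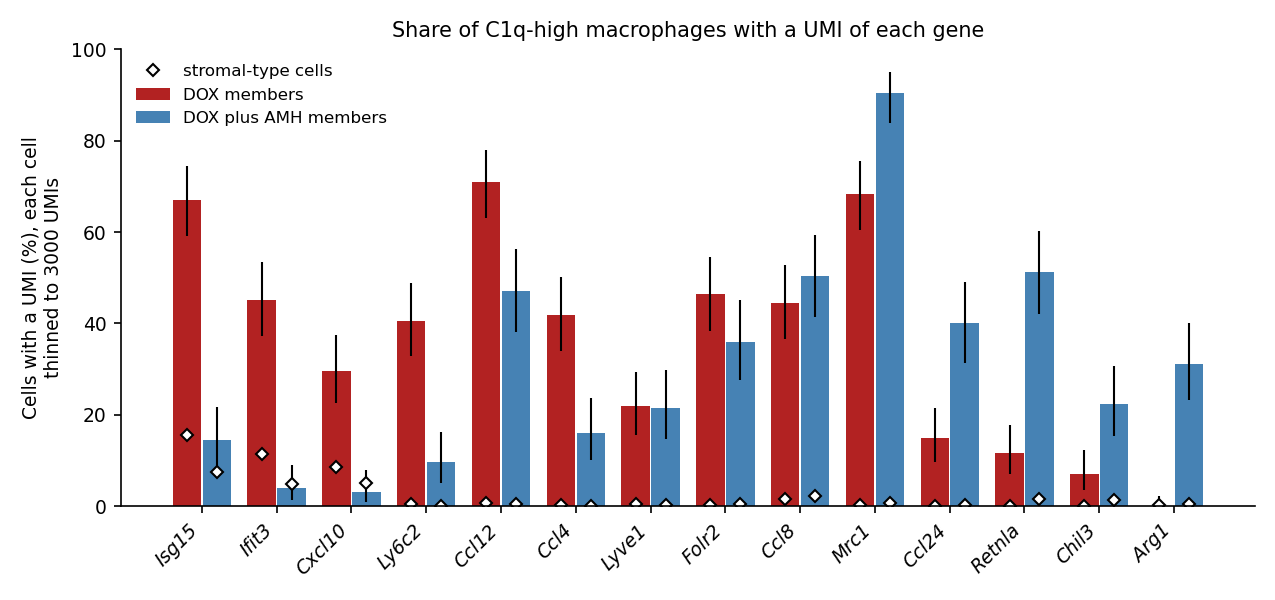
Percent of C1q-high macrophages with a UMI of each gene after thinning each cell to 3000 UMIs (bars, 155 DOX and 125 DOX plus AMH members), with exact 95% intervals (lines) and the share in stromal-type cells of the same library (diamonds). Shares run from 67.1% to 14.4% for Isg15 and from 0 to 31.2% for Arg1, while those of Lyve1 are 21.9% and 21.6%.

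Within the DOX plus AMH library the alternative activation genes met in the same cells in part. Of 53 members with Arg1, 34 had Chil3, 43 had Retnla, 44 had Ccl24 and 49 had Fn1, the gene of fibronectin. Lyve1 was found in 10 of the 53 and Ccr2 in 23. These overlaps follow depth as well as expression and are given without a test. Fn1 stood at 158 and 1577 CPM (log2 ratio 3.32, interval 3.13 to 3.50), with 36.4% of its DOX UMIs in 1 cell and a ratio of 1.26 without sub-clusters 1 and 6. Other genes far higher in the DOX plus AMH members were Saa3, an acute-phase protein (10.0 and 1109 CPM, in 5 and 25 members), Slc7a2, a carrier of arginine (0.589 and 214, in 1 and 31 members), Rnase2a (2.94 and 423, in 3 and 45 members) and Marco, a scavenger receptor (1.18 and 162, in 2 and 9 members).

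Outside the interferon list, the genes that were far lower in the DOX plus AMH members included Ly6c2 (1177 and 43.8 CPM, log2 ratio -4.75, interval -5.09 to -4.42), which marks inflammatory monocytes, and Ly6a (831 and 74.1). Ly6c2 had a UMI in 70 and 23 members, and 65 of the 70 also had Isg15. Ly6c2, Ly6a, Isg15 and Irf7 were all among the leading genes of sub-cluster 1. Whether the Ly6 gaps are separate from those of the interferon list was not tested. Plac8, another gene of monocytes, stood at 1703 and 527 CPM, while Ccr2 stood at 313 and 321. These genes had log2 ratios of -2.06 (Ly6c2), -0.51 (Plac8) and 0.62 (Ccr2) without sub-clusters 1 and 6. Of 10 counted genes on the monocyte list, 3 were lower and 4 higher, so the list as a whole did not lie to one side. Its highest log2 ratio, 6.03, was that of Chil3, given above with the alternative activation genes. Fewer cells of a kind and less RNA per cell both lower such a sum. Shares of cells are given beside the levels for that reason.

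Antigen presentation by MHC class II was level between the libraries over all members. Of 13 counted genes 1, the co-stimulatory receptor Cd40 (70.1 and 40.4 CPM), was lower and 0 were higher, with a median log2 ratio of -0.01. H2-Aa stood at 2195 and 2286 CPM and Cd74, the invariant chain, at 5389 and 5526. Sub-clusters went opposite ways: the list stood at 5532 and 9010 CPM in sub-cluster 0, with 5 of 9 counted genes higher, and at 15879 and 11576 in sub-cluster 2, with 5 of 8 lower. Class I genes differed in part: 8 of 16 were lower and 0 higher, with a median of -0.55. The lower ones were led by the immunoproteasome subunits Psmb9 (366 and 151 CPM), Psmb8 (656 and 299) and Psmb10 (274 and 117), which are inducible by interferon, while H2-K1 (1971 and 1948) and B2m (3186 and 3199) stood level.

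Receptors for antibody went both ways. The activating Fcgr1 and Fcgr4 (249 and 131 CPM) and the shared signalling chain Fcer1g (3263 and 1954) were lower in the DOX plus AMH library. The inhibitory Fcgr2b stood higher, at 324 and 544 CPM (log2 ratio 0.75, interval 0.59 to 0.90), and so did the activating Fcgr3, at 268 and 410. The log2 ratios of Fcer1g and Fcgr3 were -0.30 and 0.36, under 1.5-fold, without sub-clusters 1 and 6. Beyond C1q, the complement genes C3 (57.7 and 319 CPM) and Itgam, a chain of complement receptor 3 (208 and 485; log2 ratio 1.22, and 0.15 without sub-clusters 1 and 6), were the 2 of 12 counted genes that were 1.5-fold higher, and 0 were lower. C3 also stood higher in stromal-type cells, at 209 and 1627 CPM, and the part of free RNA in the members' C3 was not tested.

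Genes for the uptake of dead cells were level for the most part. Of 14 counted genes, 2 were lower, Cd300lf (84.8 and 15.7 CPM) and Timd4, and 0 were higher. The receptor kinases Mertk and Axl had log2 ratios of -0.15 and 0.27, and their bridge Gas6 one of -0.14. Of 22 counted lysosomal genes, 3 were higher, the saposin precursor Psap (1320 and 2709 CPM, log2 ratio 1.04, interval 0.96 to 1.11) and the proteases Ctsl (413 and 685) and Ctsd (1006 and 1581). Tfeb, a regulator of lysosomal genes, was the 1 lower gene, with a log2 ratio of -0.59. Without sub-clusters 1 and 6, Psap alone passed 1.5-fold, and Ctsl, Ctsd and Tfeb had ratios of 0.21, 0.11 and -0.27. Apoe, the lipid carrier, was among the most abundant transcripts at 6636 and 6152 CPM. Fabp5, a fatty acid carrier, stood at 47.7 and 382 CPM, and Pparg, a receptor for lipids, at 64.8 and 26.9, with a log2 ratio of -1.27 that was 0.15 without sub-clusters 1 and 6. Fth1, the heavy chain of ferritin, stood at 9662 and 6708 CPM, a difference under 1.5-fold.

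Doxorubicin acts through DNA damage, which activates p53. Of 25 counted p53 targets, 7 were lower and 1 higher in the DOX plus AMH members, with a median log2 ratio of -0.46. Bax, which opens mitochondria in apoptosis, stood at 571 and 299 CPM (-0.94, -1.09 to -0.78), the AKT inhibitor Phlda3 at 143 and 74.7, and the reductase Dcxr at 158 and 79.1. Cdkn1a, the cell cycle inhibitor p21, and Mdm2, the ligase that degrades p53, were lower by less than 1.5-fold, at 1132 and 768 CPM and 355 and 253. Ephx1, an epoxide hydrolase, stood higher at 18.8 and 56.7 CPM. Of 22 counted apoptosis genes, 9 were lower and 2 higher. The p53 median without sub-clusters 1 and 6 was -0.40, with 6 of 24 lower, and Bax then had a ratio of -0.35. Bcl2l1, which blocks apoptosis, stood lower at 168 and 99.9 CPM (log2 ratio -0.35 without those sub-clusters) and Bcl2, which does so too, higher at 18.8 and 41.0, so the list did not lie on one side of apoptosis. In stromal-type cells the median of the p53 list was -0.07 over 41 counted genes, beside 0.17 for all counted genes.

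Genes of hormone response, early response, transcription and glycolysis are given by list. Of 9 counted targets of the glucocorticoid receptor, 4 were higher and 0 lower: Sgk1 (15.9 and 45.5 CPM), Tsc22d3 (30.6 and 65.7), Dusp1 (226 and 390) and Mt1 (334 and 506; log2 ratio 0.37 without sub-clusters 1 and 6). Their receptor Nr3c1 stood at 128 and 127 CPM. The median log2 ratio of this list was 0.46 in members and 0.64 over 24 counted genes in stromal-type cells. That of all counted genes in stromal-type cells was 0.17. The list median was 0.94 in C1q-low Csf1r-positive cells and 1.56 in dendritic-type cells, over 2 counted genes in each. Whether members differ from those cells was not tested. Of 23 counted immediate-early genes, 10 were higher and 4 lower, with Klf4, Rhob and Zfp36l1 among the higher and Atf3 and Jun among the lower, both under 1.5-fold without those sub-clusters (-0.36 and -0.10). Of 20 counted transcription factors of tissue macrophages, 8 were higher, led by Cebpa (21.8 and 57.8 CPM), and 2 were lower, Pparg and Runx3 (44.8 and 23.6). Of 12 counted genes for glycolysis and hypoxia, 7 were higher and 0 lower, with a median log2 ratio of 0.74, among them Pgam1 (87.7 and 200), Eno1 (92.4 and 173) and Hif1a (93.0 and 164). Without sub-clusters 1 and 6, 0 of 10 glycolysis and hypoxia genes were higher or lower and their median was 0.02, so the difference was not seen outside those cells.

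The AMH receptor gave 2 UMIs in 2 DOX members and 0 UMIs in the DOX plus AMH members, which allows up to 1.68 CPM, so a level of Amhr2 could not be set at this depth. Stromal-type cells had 0.988 and 1.21 CPM of it. Of 25 genes of AMH and BMP signalling, 4 had enough UMIs to be counted and none was 1.5-fold apart: Smad1, Smad4, Bmpr2 and Id2, with log2 ratios from 0.04 to 0.27. Factors by which macrophages act on tissue stood level or higher. Of 12 counted growth and tissue factors, 5 were higher and 0 lower, among them Selenop, a selenium carrier (1847 and 3184 CPM), Thbs1, which can activate transforming growth factor beta (38.3 and 152), and Hbegf, a ligand of the epidermal growth factor receptor (10.0 and 52.8). Hbegf had a log2 ratio of 2.40, which was -0.26 without sub-clusters 1 and 6 and -0.12 without the cells called dividing here. Thbs1 had one of 1.99, and 0.30 without those cells. Any member with a UMI of Mki67, Top2a or Cenpf was called dividing, which 1 UMI meets, so these cells need not be in division. Leaving them out lowered the counted genes from 4937 to 4023.

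Clustering was repeated without 2630 genes, namely those at least 1.5-fold apart between the libraries and the interferon list. This choice was made after seeing the data. It gave 6 groups, called A to F here. Group A was led by Fcna, Lyve1 and Folr2, B by Ccl5, Il1b and Lgals3, C by Slc40a1, Hpgds and Fcrls, D by Ccl8 and Sod2, E by histone and MHC class II genes, and F by Tnip3, Cxcl2 and Ptgs2. Cells in the DOX and DOX plus AMH libraries numbered 29 and 23 in A, 43 and 0 in B, 24 and 30 in C, 24 and 24 in D, 28 and 22 in E, and 15 and 35 in F. Of the 54 members of sub-cluster 1, 42 fell in group B, so these cells stayed apart without the differing genes, while members of sub-cluster 6 fell into groups with cells of both libraries. A group need not hold like cells in both libraries. Group D took 25 cells of sub-cluster 0 and 14 of sub-cluster 6, and Lyve1 stood there at 683 CPM in the DOX members (15 of 24 with a UMI) and at 148 in the DOX plus AMH members (3 of 24).

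Within each of the 5 groups that held both libraries, the interferon list was lower in the DOX plus AMH members. Its summed level was 17657 and 8828 CPM in A, 11392 and 6507 in C, 17592 and 6124 in D, 13755 and 6425 in E and 24074 and 5018 in F. The DOX members of group B had 39209 CPM. Isg15 was lower in each as well, for example 1399 and 46.0 CPM in D and 300 and 48.2 in C. Alternative activation differed between groups: its summed level was 3018 and 31135 CPM in D, 5166 and 16710 in F, 1574 and 8963 in E and 5702 and 11513 in A, but 5463 and 6011 in C. Arg1 was at 0 UMIs in C in both libraries and at 0 UMIs in the DOX members of A, D and F, with 106, 3663 and 3283 CPM in the DOX plus AMH members of these groups. The first clustering left out neither the interferon genes nor the other differing genes, and gaps within its sub-clusters were smaller. The interferon list stood at 8812 and 7931 CPM in sub-cluster 0, the largest that held both libraries, where 2 of 9 counted genes were lower and 2 higher with a median log2 ratio of -0.05. It stood at 8454 and 6142 CPM in sub-cluster 2, 11786 and 8946 in sub-cluster 4 and 9034 and 5335 in sub-cluster 5. Isg15 stood at 450 and 70.2 CPM in sub-cluster 0. The alternative activation list stood at 6224 and 9991 CPM in sub-cluster 0, with 2 of 7 counted genes higher, and at 5308 and 5652 in sub-cluster 2. In groups A to F, MHC class II stood at 31866 and 32607 CPM in E and 4341 and 7273 in A.

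**Figure D4:**
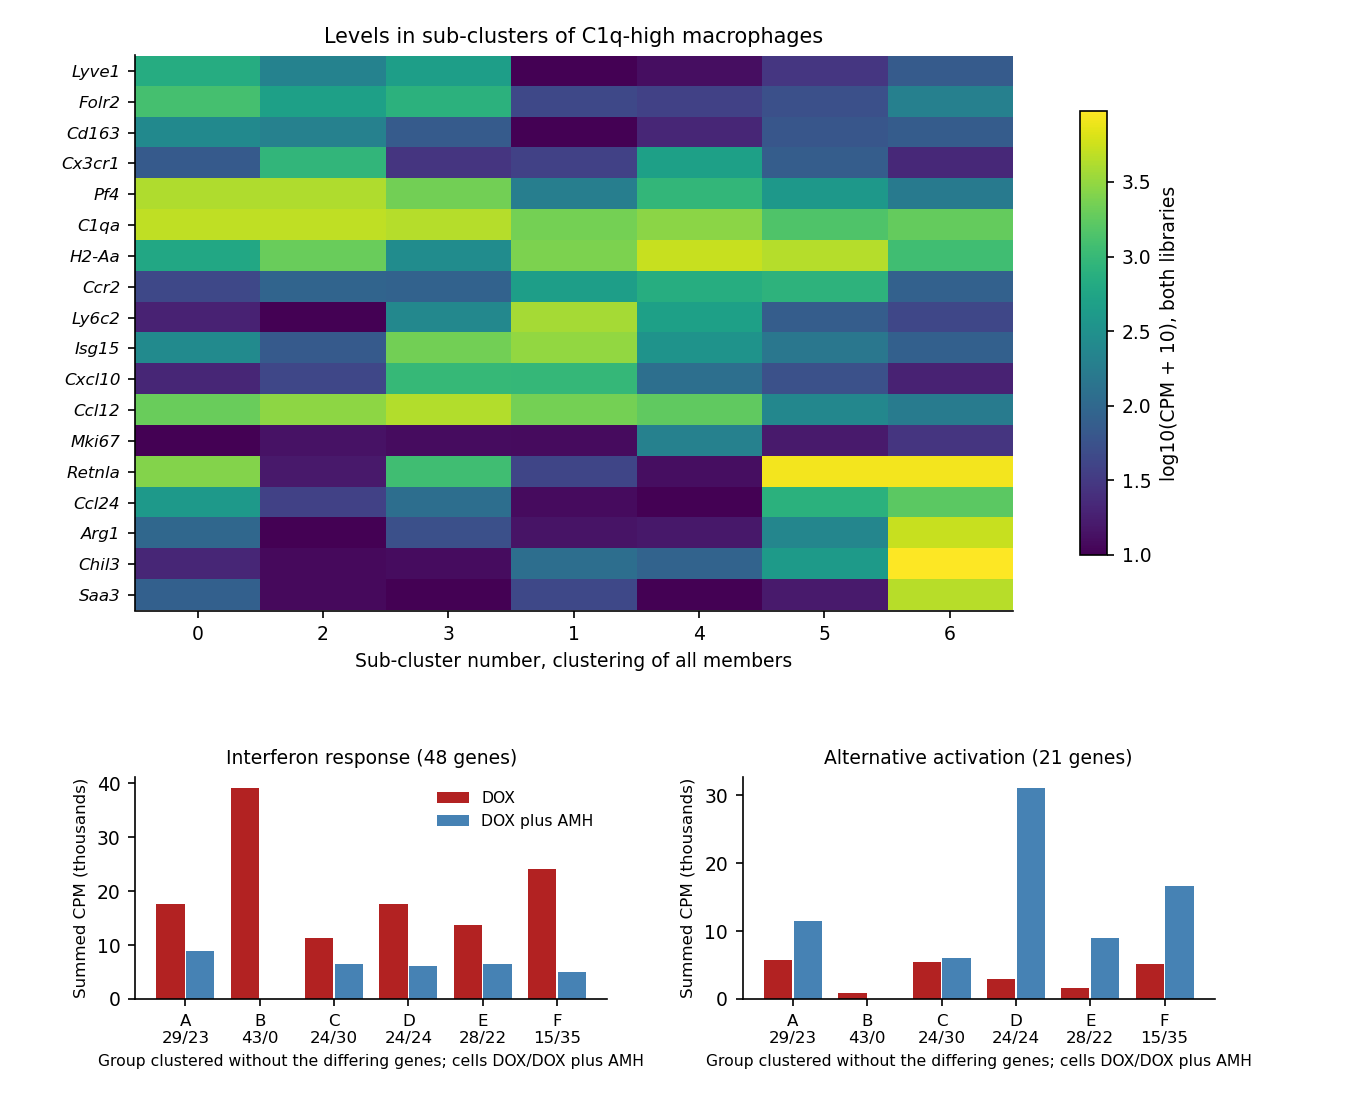
Top: level of selected genes, log10(CPM + 10) over both libraries, in the 7 sub-clusters of members. Bottom: summed level, in units of 1000 CPM, of the interferon and alternative activation lists in groups A to F, clustered without the differing genes, with cell numbers under each pair of bars. The interferon bars are lower for DOX plus AMH in each group with both libraries, and the alternative activation bars of group C stand near each other (5463 and 6011 CPM).

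Members were also split by markers. Those with at least 2 UMIs of Folr2, Lyve1, Cd163 and Timd4 together per 10000 UMIs, here the Folr2 class, numbered 77 and 59, and the others 86 and 75. This split was also made after seeing the data. Of 42 counted interferon genes, 36 were lower in the DOX plus AMH members of the Folr2 class (median log2 ratio -1.23) and 39 in the others (-1.83). Of 11 counted alternative activation genes, 7 were higher in the Folr2 class (median 0.94) and 8 in the others (1.48), and 0 were lower in either. Isg15 had log2 ratios of -3.24 and -4.28, and Arg1 stood at 0 UMIs and 911 CPM in the Folr2 class and at 4.79 and 1780 CPM in the others. Other genes are given by class. Of the p53 targets, 2 of 19 were lower in the Folr2 class and 10 of 16 in the others, with Bax at 425 and 323 CPM in the first and 722 and 278 in the second. Mrc1 stood at 2520 and 3014 CPM in the Folr2 class and at 508 and 1430 in the others, and Psap at 1038 and 2773 and at 1612 and 2654. Of the perivascular list, genes of which made the split, 3 of 19 were lower and 5 higher in the Folr2 class (median 0.26). In the others 0 of 10 were lower and 9 higher (median 1.37), from 1223 to 4025 CPM summed. Of 22 counted macrophage identity genes, 3 were lower and 3 higher in the Folr2 class, and 6 were lower and 6 higher in the others. Whether the classes differ was not tested, since there is no replicate.

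**Figure D5:**
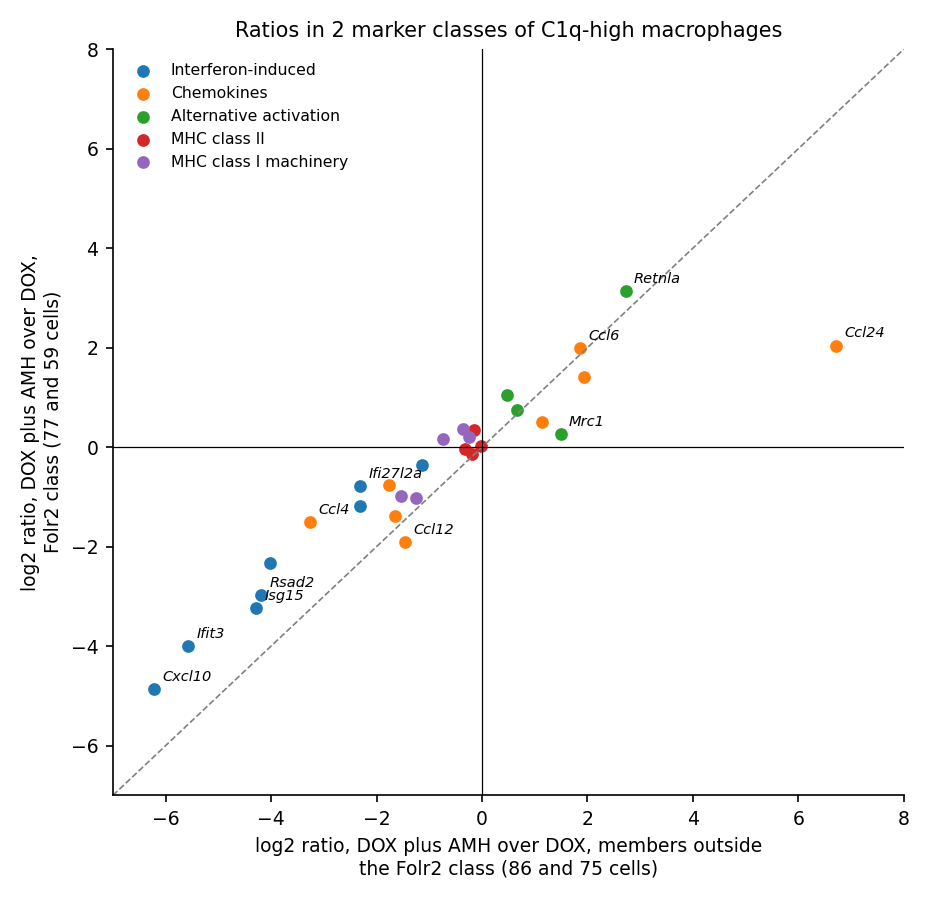
Log2 ratio of DOX plus AMH over DOX in members outside the Folr2 class (horizontal) against the Folr2 class (vertical) for single genes with UMIs in all 4 sums; the dashed line marks equal ratios. Interferon genes lie in the lower left (Ifit3 at -5.58 and -4.00) and Retnla in the upper right (2.72 and 3.14).

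Markers of other cell types were low in members and are given beside these results. Summed over each list in the DOX and DOX plus AMH members, stromal markers stood at 372 and 298 CPM (with a UMI in 156 and 122 members), those of smooth muscle at 238 and 217, of epithelium at 30.6 and 48.8, of endothelium at 29.4 and 24.7, and of mesothelium at 5.89 and 6.17. In stromal-type cells the stromal list stood at 20851 and 18475 CPM. Markers of T and NK cells stood at 21.2 and 18.5 CPM, with 8 of 15 at 0 UMIs, among them Cd3e and Trac. Neutrophil markers stood at 40.6 and 60.1 CPM with Ly6g and Ngp at 0 UMIs, mast cell markers at 0 and 1.12 CPM, and B cell markers at 164 and 176 with Cd79a at 0 UMIs. Adipocyte markers stood at 18.8 and 29.8 CPM, and dendritic markers, without Flt3, at 283 and 386. Krt5, a keratin of basal epithelium, had 0 UMIs in the DOX members and 31 UMIs in 26 of the DOX plus AMH members, beside 0.0278 and 25.9 CPM in stromal-type cells. Erythroid markers stood at 15.3 and 740 CPM, and 1 member of sub-cluster 6 held 89.5% of the haemoglobin UMIs of all DOX plus AMH members. Leaving out that member moved 0 of 158 gene ratios and 0 of 43 list medians across 1.5-fold. The part of the other marker UMIs in the results was not tested.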

How the data were processed

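Droplet 3′ libraries of dissociated mouse uterus, 1 per group, were deposited as filtered matrices of raw UMI counts per gene and barcode, made by the authors with Cell Ranger 7.0.0 against mm10, per the file headers and the submitters' processing notes. The dosing schedule of these animals is not given in the sources used here beyond dose and time. Counts were summed over the members of each library and divided by their total UMIs. Log2 ratios carry exact binomial 95% intervals of the split of a gene's UMIs, which cover counting error only. The members and the gene lists were chosen with earlier results of these data known. Genes were named by a rule: genes of the rule, the 12 highest and lowest ratios, up to 6 abundant and 4 most different genes of each list, and the 15 highest and 10 lowest against C1q-low cells. Defining markers and some list members outside that rule were named after their values were seen. Scanpy 1.11.5 clustered the members (15 principal components, 15 neighbours, Leiden resolution 0.5) and Scrublet called doublets at an expected rate of 8%, which were kept. Trimmed-mean factors came from edgeR 4.0.16. Ratios, calls of size and intervals were tested on simulated counts already summed per gene.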

Additional observations from a re-analysis of the deposited data

How the results depend on the processing

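The median log2 ratio of the interferon list lay between -1.83 and -1.23 under the alternatives tried, with the same direction in each. That of the alternative activation list stayed above 0 but fell under 1.5-fold with TMM factors (0.54), median of ratios (0.58), the mean of per-cell levels (0.57) and a filter of 20 UMIs (0.58). With Epcam, Pecam1 and Col1a2 at 0 UMIs the shares of members were 1.04% and 1.00%, and 317 genes were higher. Leaving out sub-clusters 1 and 6 gave 283 genes lower and 288 higher, and the Folr2 class alone gave 264 and 214; both hold fewer cells. TMM factors gave 317 higher. A filter of 20 UMIs gave 965 lower and 1660 higher, and one of 400 UMIs gave 137 and 108, since they test more or fewer genes. Reversals were sought among named genes and lists that were at least 1.5-fold apart over all members. With sub-clusters 1 and 6 left out they came for Hbegf (-0.26), Tgm2 (-1.08), Pparg (0.15) and the list of clock genes (-0.11). With dividing cells left out one came for Hbegf (-0.12). Changes of sign from a smaller ratio, such as that of Cxcl2, are not among these. The cause was not tested. Clustering gave 9, 5 and 6 clusters in place of 7 at resolution 1, after thinning, and without the differing genes. No paired analysis was possible because each group is 1 library. Depth limits genes with few UMIs, such as Amhr2, and the share of a gene's UMIs in 1 cell limits those carried by few members.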
